A study of Mus musculus with 24 samples.

Results

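The effect of time of day on the liver transcriptome was set between global Bmal1 knockout mice and wild-type mice. The contrast was the CT14 minus CT2 difference in knockouts minus that in wild type. It is called here the difference of time effects. It rests on 12 of the 24 libraries of the series, 3 in each of 4 groups. Global knockout mice (KO, Bmal1-/-) and wild-type mice (WT, Bmal1+/+) came from crosses of heterozygotes on the C57BL/6J background. Livers of each genotype were taken at CT14, early in the subjective night, and at CT2, early in the subjective day. The other 12 libraries came from liver-specific knockouts (LKO, Alb-Cre with Bmal1f/f, in which Cre is driven by the albumin promoter and so acts chiefly in hepatocytes) and from floxed mice without Cre (F, Bmal1f/f), at the same times. They served as a separate experiment for the same contrast. The age of the mice, their feeding before collection and whether the 3 libraries of a group came from separate animals are not stated in the labels, so p-values measure the spread between these samples, which may be technical. A global knockout lacks BMAL1 in the brain and every other organ as well as in the liver, and a difference in its liver cannot be assigned to the liver's own clock by this contrast. In bulk liver, fewer cells of a type and less RNA per cell cannot be told apart.

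BMAL1 (gene name Bmal1) pairs with CLOCK or NPAS2 and binds E-box sequences, from which the pair activates the Per and Cry genes, the REV-ERB genes Nr1d1 and Nr1d2, and output factors such as Dbp and Tef. PER and CRY proteins return to the nucleus and repress the pair, while REV-ERB proteins repress Bmal1 and Npas2 through ROR elements, on which ROR receptors act in the opposite direction. In liver these loops, together with feeding, body temperature and glucocorticoids, give many metabolic genes a daily rhythm. With 2 times sampled, a gene can be scored as higher at one of them, but its peak and its amplitude are not measured.

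The 12 libraries held between 89908700 and 131545000 estimated counts, and 20514 genes passed the filter on low counts. Hepatocyte markers such as albumin were abundant in each library, with a sum over 10 markers of 83476 to 130692 CPM (read counts scaled to each library's size) in KO and 113234 to 149743 CPM in WT. Of these 10, 0 had a called difference of time effects, where 0.799% of all genes did. Some libraries stood apart. KO CT14 replicate 3 had 3386 CPM summed over 16 interferon-stimulated genes, against 305 to 832 CPM in the other 11. KO CT14 replicate 1 and KO CT2 replicate 2 had higher sums over 16 spermatid genes (21.5 and 19.0 CPM, against 7.18 to 10.4 CPM). They are called spermatid-positive below, though the 12 LKO and F libraries held 16.2 to 49.7 CPM of these genes. KO CT2 replicate 1 had 9.61 CPM of the Y-linked gene Ddx3y, against 25.7 to 39.7 CPM. Its sum over 4 Y-linked genes, Ddx3y included, was 65.9 CPM, against 66.7 to 90.7 CPM, so the list as a whole did not share the low value. Counts are therefore also given without these KO libraries.

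Bmal1 (ENSMUSG00000055116) itself stood at 7.095, 6.66 and 7.53 CPM in KO at CT14 and 7.47, 7.15 and 7.57 CPM in KO at CT2. Bmal1 in WT stood at 6.46, 2.93 and 8.16 CPM at CT14 and 30.7, 33.8 and 31.2 CPM at CT2. The knockout thus kept a flat transcript level, near that of WT at CT14 and far below that of WT at CT2, with no overlap of libraries at CT2. Whether the deleted part of the gene lies within the counted exons cannot be read from these totals. Bmal1 is among the genes with a called difference of time effects, 2.39 ± 0.50 on the log2 scale (SE, adjusted p = 0.0215), and the call was lost on leaving out any 1 of KO CT2 replicates 1, 2 and 3, WT CT14 replicate 2, or WT CT2 replicate 2, with an adjusted p of up to 0.06.

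Across all genes, 164 had a called difference of time effects at an adjusted p under 0.05, which is 0.799% of the genes tested. In 103 of them (0.502%) the difference was positive and in 61 (0.297%) negative, so 62.8% were positive. On the TPM scale with limma the split was 67 positive and 76 negative, 46.9% positive. At an unadjusted p under 0.05 there were 1882 genes (9.17%). Without WT CT14 replicate 2 the count of called genes was 101, without the 2 spermatid-positive KO libraries 85, and without KO CT2 replicate 1 and KO CT14 replicate 3 together 98. In WT, 521 genes (2.54%) differed between CT14 and CT2, 226 higher at CT14 (1.1%; called night-high below) and 295 higher at CT2 (1.44%; day-high), and the count was 270 without WT CT14 replicate 2, 332 without WT CT2 replicate 2 and 335 without WT CT2 replicate 1. In KO, 0 genes passed, the smallest adjusted p being 0.624. There were 753 genes (3.67%) with an unadjusted p under 0.05. DESeq2 called 37, and limma on TPM called 1. The CT14 and CT2 libraries did not overlap in 7.63% of all genes in KO and in 21% in WT. The edgeR count in KO was 8 without KO CT2 replicate 3, 2 without KO CT2 replicate 2 and 1 without KO CT14 replicate 1. The authors' deposited table of DESeq2 comparisons listed 32 genes for time in KO and 1102 for time in WT. Some genes with the smallest p for time in KO split by library within KO at CT2. Cwc22rt1 stood at 0.617, 0.612 and 0.0104 CPM there and at 0.0183, 0.00755 and 0.0359 CPM in KO at CT14. In WT it stood at 0.303 to 0.888 CPM, and in the LKO and F libraries at 0.00756 to 0.0285 CPM. Cwc22rt2, Cwc22rt4 and Cwc22rt6 split likewise. Fam171b stood at 10.88, 26.42 and 1.295 CPM in KO at CT2 and 1.774, 0.943 and 1.606 CPM in KO at CT14. Its level was 6.45 to 16.3 CPM in WT and 0.384 to 2.54 CPM in the LKO and F libraries. Whether KO libraries of the 2 times differ in genetic background was not tested.

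Of the 164 genes, 155 were called for time in WT and not in KO, and are described here as lost: 59 night-high and 96 day-high genes. The other 9 were called for time in neither genotype taken alone. By edgeR no gene was called for time in KO, so 0 genes could be classed as gained or as changed between 2 called effects. This classing depends on the tool, since 4 of the 164 genes were among the 32 called for time in KO in the authors' deposited table. In the authors' deposited table Rpl21 had a KO time difference of 2.07 log2 (adjusted p = 9.72e-06), Irs2 one of 1.70 log2 (adjusted p = 0.00415), Bdh2 one of -1.28 log2 (adjusted p = 0.0139) and Nrep one of -1.26 log2 (adjusted p = 0.0208). For Irs2 and Nrep the authors' deposited table also listed WT time differences below 0.05 in adjusted p and of opposite sign (-1.14 log2, adjusted p = 0.0101 and 2.04 log2, adjusted p = 3.95e-24). Just inside the threshold stood Magi1 (adjusted p = 0.0475) and just outside it the gene ENSMUSG00000120084 (0.0507) and Ppard (0.0509). The 59 night-high genes had a median time difference of -0.11 log2 in KO and 1.63 log2 in WT, and the 96 day-high genes one of 0.20 log2 in KO and -1.63 log2 in WT. These medians describe genes chosen by this contrast and test nothing.

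The 521 genes called for time in WT were chosen by the WT contrast, which takes no level from KO, although the KO libraries entered the filter, the scaling and the estimate of spread (471 calls without the 2 spermatid-positive KO libraries). Their median time difference in KO was -0.007 of that in WT. The KO difference had the sign of the WT difference in 251 and the opposite sign in 270 (9752 and 10762 over all genes tested). In KO, 30 of the 521 had an unadjusted p under 0.05, against 3.67% of all genes. The 366 of the 521 without a called difference of time effects had a median share of 0.0333 in KO. Their KO difference had the WT sign in 217 and the opposite sign in 149. That split says nothing of its own, since the called genes taken out are those whose KO value departs most from WT. By edgeR, 0 of the 521 were called for time in KO.

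**Figure D1:**
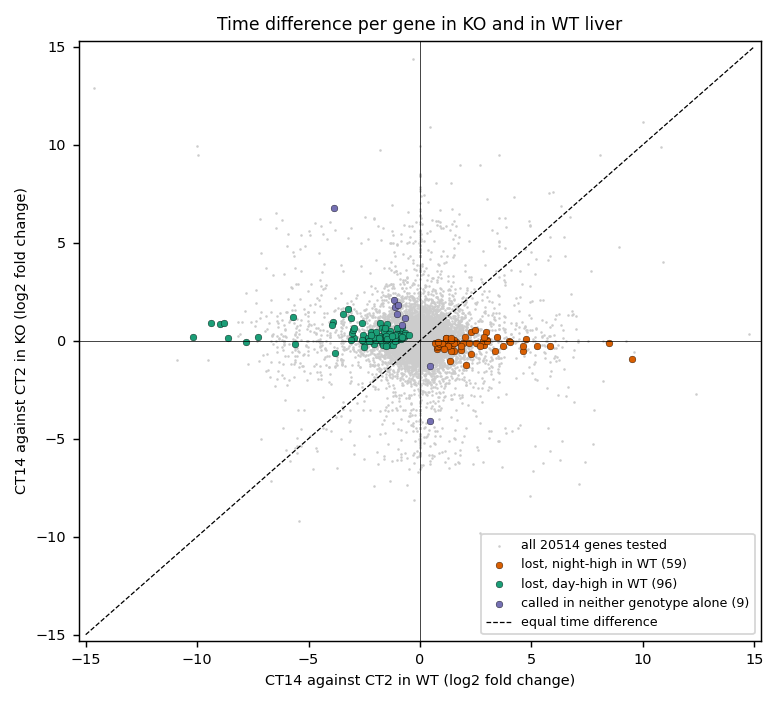
Each point is a gene, with its CT14 against CT2 difference in WT on the horizontal axis and in KO on the vertical axis, both as log2 fold changes; grey points are the 20514 genes tested. The 155 lost genes, orange for night-high and green for day-high, spread along the horizontal axis close to a KO difference of 0, far from the dashed line of equal differences, and the 9 purple genes were called in neither genotype alone.

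Among the activators of the clock, Npas2, which can take the place of CLOCK beside BMAL1, had the smallest p of any gene. It stood at 27.3, 24.7 and 23.6 CPM in KO at CT14 and 22.7, 19.6 and 24.3 CPM in KO at CT2. Npas2 in WT stood at 0.0657, 0.0357 and 0.06996 CPM at CT14 and 6.19, 10.97 and 9.65 CPM at CT2. KO was above every WT library at both times. The day-night difference of WT, -7.26 ± 0.40 log2, was 0.18 ± 0.28 log2 in KO. The difference of time effects was 7.44 ± 0.48 log2 (SE, adjusted p = 1.58e-08) and was called in every alternative run. Clock, the usual partner of BMAL1, did not pass (0.99 ± 0.69 log2, adjusted p = 0.772). Over the 30 tested members of the clock lists, 2 rose in KO relative to WT in their time effect and 8 fell, against 0.502% and 0.297% of all genes; their median difference was -0.31 log2 and that of all genes tested 0.00 log2.

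In the PER and CRY arm, 4 of 8 repressors fell in their time effect and 0 rose, with a median of -3.36 log2. Per2 stood at 14.8, 35.2 and 15.6 CPM in KO at CT14 and 22.9, 25.95 and 30.2 CPM in KO at CT2. Per2 in WT stood at 50.2, 60.3 and 69.7 CPM at CT14 and 4.78, 3.46 and 5.23 CPM at CT2. KO lay between the 2 times of WT, above WT at CT2 and below it at CT14 in every library (-4.01 ± 0.49 log2, adjusted p = 0.000168). Per3 stood at 4.005, 3.71 and 2.88 CPM in KO at CT14 and 2.61, 4.85 and 2.498 CPM in KO at CT2. Per3 in WT stood at 20.5, 21.4 and 27.3 CPM at CT14 and 1.05, 1.003 and 0.533 CPM at CT2 (-4.65 ± 0.47 log2, adjusted p = 1.53e-05). Ciart, which encodes the repressor CHRONO, was near the detection limit in KO, with 0.174, 0.234 and 0.0628 CPM at CT14 and 0, 0.285 and 0.238 CPM at CT2. Ciart in WT stood at 11.4, 16.7 and 6.48 CPM at CT14 and 0, 0.0514 and 0.0444 CPM at CT2. Ciart was thus low at both times in KO and high at CT14 in WT (-8.61 ± 1.55 log2, adjusted p = 0.00724; 0.0694 without the 2 spermatid-positive KO libraries), and the size of its fold change rests on near-zero counts.

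Other members of this arm behaved differently from one another. Cry2 stood at 50.7, 45.7 and 49.5 CPM in KO at CT14 and 38.3, 49.1 and 45.4 CPM in KO at CT2. Cry2 in WT stood at 35.8, 38.5 and 46.1 CPM at CT14 and 13.6, 21.3 and 19.1 CPM at CT2. KO libraries were all above WT at CT2, and they overlapped WT at CT14, the reverse of the pattern of most lost genes (-1.02 ± 0.22 log2, adjusted p = 0.0289, though the call was lost on leaving out any 1 of KO CT14 replicates 1, 2 and 3, KO CT2 replicates 2 and 3, WT CT14 replicates 2 and 3, or WT CT2 replicate 1, with an adjusted p of up to 0.0894). Cry1 was higher in KO than in WT at both times, at 68.2, 58.1 and 54.3 CPM in KO at CT14 and 60.7, 54.2 and 49.1 CPM in KO at CT2. Cry1 in WT stood at 26.6, 22.1 and 30.1 CPM at CT14 and 23.97, 24.8 and 20.4 CPM at CT2, with a difference of time effects of -0.05 ± 0.26 log2 (adjusted p = 1). Per1, an immediate target of light and hormone signals as well as of BMAL1, was higher in the KO libraries at CT14 on average, at 18.8, 9.53 and 18.5 CPM in KO at CT14 and 6.90, 12.2 and 6.14 CPM in KO at CT2. Per1 in WT stood at 30.5, 34.6 and 28.8 CPM at CT14 and 2.25, 1.87 and 1.39 CPM at CT2. Its difference of -3.20 ± 0.88 log2 missed the threshold (adjusted p = 0.12), though DESeq2, limma on TPM and a fit to the 12 libraries alone called it. Bhlhe40, which encodes the repressor DEC1, did not pass (-1.37 ± 0.39 log2, adjusted p = 0.13).

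In the second loop, Nr1d2, which encodes REV-ERB beta, was low at both times in KO. It stood at 4.84, 2.11 and 3.93 CPM in KO at CT14 and 2.27, 2.82 and 2.41 CPM in KO at CT2. Nr1d2 in WT stood at 54.6, 49.9 and 44.6 CPM at CT14 and 9.204, 8.38 and 9.03 CPM at CT2. KO was below WT in every library at each time (-1.95 ± 0.43 log2, adjusted p = 0.0311), but the call was lost on leaving out any 1 of KO CT14 replicates 2 and 3, KO CT2 replicates 1, 2 and 3, WT CT14 replicates 1 and 2, or WT CT2 replicates 1, 2 and 3, with an adjusted p of up to 0.0866. Nr1d1, which encodes REV-ERB alpha, was likewise low in KO, at 1.33 to 2.21 CPM over its 6 KO libraries, below every WT library, and it was not called for time in WT at these hours (difference of time effects -0.66 ± 0.73 log2, adjusted p = 0.924). Rora, which encodes an ROR receptor, did not pass (0.38 ± 0.63 log2, adjusted p = 0.98).

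The PAR bZIP factors bind D-box sequences and carry clock timing to detoxification and lipid genes. Tef stood at 81.9, 63.03 and 58.3 CPM in KO at CT14 and 72.9, 81.05 and 82.96 CPM in KO at CT2. Tef in WT stood at 150.3, 169 and 163 CPM at CT14 and 24.3, 20.8 and 20.2 CPM at CT2. KO libraries lay between the 2 times of WT without overlap (-3.11 ± 0.25 log2, adjusted p = 6.63e-07). Dbp stood at 3.65, 1.21 and 1.89 CPM in KO at CT14 and 2.68, 3.81 and 1.62 CPM in KO at CT2. Dbp in WT stood at 27.7, 38.3 and 22.05 CPM at CT14 and 0.847, 0.360 and 0.311 CPM at CT2 (-6.12 ± 0.77 log2, adjusted p = 0.00024). The KO libraries again lay between the 2 times of WT without overlap. Hlf, the third factor of this family, gave -0.90 ± 0.27 log2 (adjusted p = 0.173), and Nfil3, a repressor at the same sites, 1.03 ± 0.25 log2 (adjusted p = 0.0617; called by DESeq2 and in a fit to the 12 libraries alone). Usp2, which encodes a deubiquitinase of clock proteins, stood at 6.13, 7.199 and 4.52 CPM in KO at CT14 and 5.81, 9.83 and 5.87 CPM in KO at CT2. Usp2 in WT stood at 55.2, 66.9 and 54.2 CPM at CT14 and 2.19, 1.13 and 1.32 CPM at CT2 (-5.51 ± 0.50 log2, adjusted p = 3.71e-06). Of the 11 kinases and ubiquitin-pathway genes in the lists, Usp2 was the single one that passed, where 0.799% of all genes did.

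**Figure D2:**
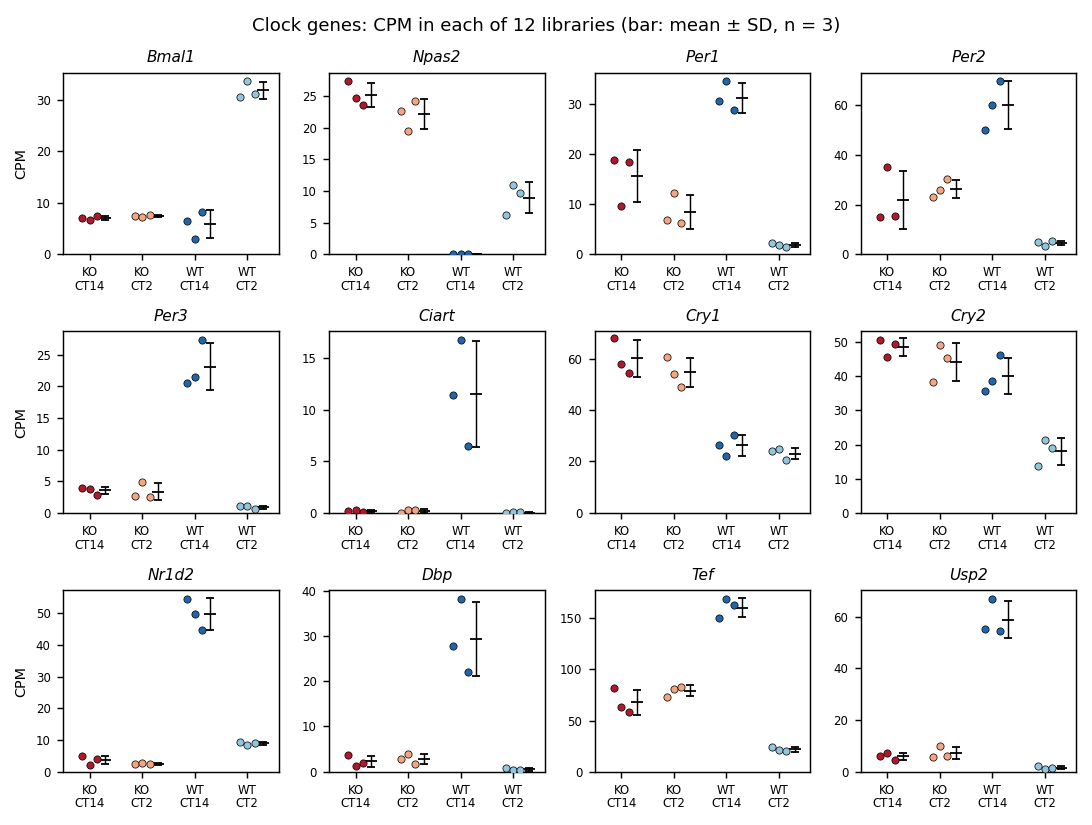
Levels in CPM of 12 clock genes in each of the 12 libraries, with KO at CT14 and CT2 to the left of WT at CT14 and CT2; points are libraries and bars the mean ± SD (n = 3). In Per2, Tef, Usp2 and Dbp the KO points lie between the 2 times of WT, in Ciart and Nr1d2 they stay low, and in Npas2 they stay high.

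Promoter windows of 4 genes from these loops and of the output gene Coq10b are shown because their motifs differ: E-boxes for BMAL1, D-boxes for PAR bZIP factors and an ROR element. They are 300-base RefSeq windows on GRCm38.p6, read 5′ to 3′ on the gene's strand, with motif letters in capitals. The windows lie at chr3:95882179-95882478 (minus strand, Ciart, 3 E-boxes), chr15:81802423-81802722 (plus, Tef, 1 E-box, as in its other window), chr4:151044616-151044915 (minus, Per3, 2 D-boxes), chr1:55052520-55052819 (plus, Coq10b, 1 E-box and 1 D-box) and chr7:113207261-113207560 (plus, Bmal1, 1 ROR-like element). The other RefSeq window of Bmal1, chr7:113207215-113207514, holds none of the searched letters.
Ciart: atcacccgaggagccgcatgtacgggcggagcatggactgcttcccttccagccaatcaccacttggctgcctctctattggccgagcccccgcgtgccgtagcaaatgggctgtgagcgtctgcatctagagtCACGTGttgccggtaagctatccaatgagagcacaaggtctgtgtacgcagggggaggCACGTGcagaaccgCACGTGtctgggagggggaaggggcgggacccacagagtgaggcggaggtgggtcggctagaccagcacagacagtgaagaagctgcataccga
Tef: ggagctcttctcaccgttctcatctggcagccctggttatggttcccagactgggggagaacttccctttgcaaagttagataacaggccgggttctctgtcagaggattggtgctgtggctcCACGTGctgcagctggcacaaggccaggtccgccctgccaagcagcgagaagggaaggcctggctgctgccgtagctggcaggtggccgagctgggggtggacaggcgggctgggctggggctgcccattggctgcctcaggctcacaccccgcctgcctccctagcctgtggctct
Per3: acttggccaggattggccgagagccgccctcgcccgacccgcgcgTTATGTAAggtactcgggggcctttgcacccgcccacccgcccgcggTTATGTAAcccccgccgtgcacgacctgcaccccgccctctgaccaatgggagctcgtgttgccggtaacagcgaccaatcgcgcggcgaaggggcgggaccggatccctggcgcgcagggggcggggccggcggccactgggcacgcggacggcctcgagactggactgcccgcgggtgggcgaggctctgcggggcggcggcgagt
Coq10b: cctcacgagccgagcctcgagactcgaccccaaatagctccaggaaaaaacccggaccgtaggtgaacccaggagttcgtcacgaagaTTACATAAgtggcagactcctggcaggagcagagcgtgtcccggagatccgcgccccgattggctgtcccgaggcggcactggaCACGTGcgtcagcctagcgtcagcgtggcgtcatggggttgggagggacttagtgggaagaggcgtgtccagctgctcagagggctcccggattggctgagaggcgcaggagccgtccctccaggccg
Bmal1: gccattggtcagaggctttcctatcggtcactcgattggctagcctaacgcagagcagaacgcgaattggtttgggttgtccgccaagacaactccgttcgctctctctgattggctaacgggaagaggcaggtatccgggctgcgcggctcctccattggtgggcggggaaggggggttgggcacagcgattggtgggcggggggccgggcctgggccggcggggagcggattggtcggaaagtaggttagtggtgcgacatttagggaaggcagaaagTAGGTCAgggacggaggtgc

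The searched letters were CACGTG for the E-box, TTATGTAA or TTACGTAA for the D-box, TAGGTCA or TGGGTCA for the ROR-like element and GAANNTTC or TTCNNGAA for the heat shock element, each on both strands, and none of these motifs contains another. RefSeq windows were found for 126 of the 164 genes. An E-box stood in the windows of 7 of 47 lost night-high genes (14.9%) and of 8 of 73 lost day-high genes (11.0%), against 10.7% of the 12825 tested genes with a window. A D-box stood in 4 of 47 night-high (8.51%) and 1 of 73 day-high genes (1.37%), against 1.05%, and an ROR-like element in 4 (8.51%) and 8 (11.0%), against 6.74%. Over all 27025 genes with a window the shares were 8.09% for the E-box, 1.23% for the D-box and 7.35% for the ROR-like element. A match is a description of these letters, not a bound site.

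Among liver genes that the clock is thought to drive directly, 4 fell in their time effect in KO and 2 rose, out of 26 (background as above). The list's median difference was -0.87 log2, with 13 night-high and 4 day-high members called in WT. Lpin1, whose product lipin 1 makes diacylglycerol and also acts as a coactivator, stood at 37.02, 40.04 and 50.8 CPM in KO at CT14 and 28.1, 57.8 and 43.8 CPM in KO at CT2. Lpin1 in WT stood at 459, 595 and 175 CPM at CT14 and 22.6, 37.1 and 18.1 CPM at CT2. The KO libraries at CT14 were all below those of WT (-4.00 ± 0.63 log2, adjusted p = 0.00247). Coq10b, a coenzyme Q binding protein, gave 6.803, 9.13 and 8.51 CPM in KO at CT14 and 9.51, 7.07 and 9.72 CPM in KO at CT2. Coq10b in WT stood at 44.8, 50.02 and 26.9 CPM at CT14 and 8.21, 5.06 and 8.15 CPM at CT2 (-2.61 ± 0.46 log2, adjusted p = 0.00512). Wee1, a kinase that holds cells before mitosis, also lost its night-time level (-0.01 ± 0.27 log2 for time in KO, against 2.83 ± 0.29 log2 in WT). Its difference of time effects was -2.84 ± 0.39 log2 (adjusted p = 0.000552). Alas1 and Noct, the uncalled members with the largest differences, gave -3.12 ± 0.77 log2 (adjusted p = 0.0685) and -2.76 ± 0.74 log2 (adjusted p = 0.106).

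Genes of glucose use and lipid synthesis were among the lost night-high genes. Of 22 genes of glucose and glycogen metabolism, 4 fell in their time effect and 0 rose, against 0.297% and 0.502% of all genes, with a median of -0.42 log2. Of 22 lipogenic genes, 1 fell (0.297% of all genes), with a median of -0.30 log2. Thrsp, the lipogenic regulator Spot 14, stood at 98.4, 210.0 and 86.4 CPM in KO at CT14 and 284, 98.6 and 183 CPM in KO at CT2. Thrsp in WT stood at 2179, 2119.5 and 1733 CPM at CT14 and 94.3, 107 and 41.1 CPM at CT2. The KO libraries of both times overlapped each other and stayed far below WT at CT14 (-5.15 ± 0.61 log2, adjusted p = 0.000141). Gys2, the liver glycogen synthase, stood at 61.4, 54.98 and 40.95 CPM in KO at CT14 and 54.5, 61.6 and 51.9 CPM in KO at CT2. Gys2 in WT stood at 259, 331 and 291 CPM at CT14 and 72.6, 77.3 and 83.7 CPM at CT2. KO was below every WT library at each time, by far the most at CT14 (-2.01 ± 0.24 log2, adjusted p = 0.000145).

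Pklr, the liver pyruvate kinase, differed by time in opposite directions, with 93.1, 121 and 89.4 CPM in KO at CT14 and 134, 131 and 159.9 CPM in KO at CT2. Pklr in WT stood at 585, 338 and 333 CPM at CT14 and 128, 104 and 123 CPM at CT2. Its difference was -2.31 ± 0.30 log2 (adjusted p = 0.00031), while its KO time difference taken alone, -0.49 ± 0.21 log2, was not called. Slc37a4, the transporter that brings glucose 6-phosphate into the endoplasmic reticulum, gave -0.07 ± 0.19 log2 for time in KO and 1.63 ± 0.19 log2 in WT (-1.70 ± 0.27 log2, adjusted p = 0.00222). Pfkfb1, a liver enzyme that sets fructose 2,6-bisphosphate, departed from the others in where KO stood: 47.1, 61.1 and 47.6 CPM in KO at CT14 and 65.4, 66.5 and 48.5 CPM in KO at CT2. Pfkfb1 in WT stood at 66.1, 55.7 and 78.9 CPM at CT14 and 28.2, 24.5 and 20.6 CPM at CT2. KO libraries overlapped WT at CT14 and were above WT at CT2 (-1.67 ± 0.28 log2, adjusted p = 0.00445). Among uncalled members, Slc2a2, the glucose transporter GLUT2, gave -0.99 ± 0.27 log2 (adjusted p = 0.107) and Elovl3, a fatty acid elongase, 3.75 ± 0.95 log2 (adjusted p = 0.0835).

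Fkbp5, a glucocorticoid-induced cochaperone of the glucocorticoid receptor, stood at 30.2, 34.6 and 68.4 CPM in KO at CT14 and 22.9, 36.9 and 36.6 CPM in KO at CT2. Fkbp5 in WT stood at 144, 211 and 182 CPM at CT14 and 18.3, 29.4 and 21.8 CPM at CT2. Every KO library at CT14 was below WT at CT14, KO CT14 replicate 3 being the highest of them (-2.49 ± 0.38 log2, adjusted p = 0.00179). It was the single called gene of 16 glucocorticoid-responsive genes (0.799% of all genes were called), whose median difference was 0.19 log2. Foxo3, a transcription factor restrained by insulin signalling, stood at 26.3, 27.3 and 28.5 CPM in KO at CT14 and 22.3, 33.95 and 26.2 CPM in KO at CT2. Foxo3 in WT stood at 72.4, 79.8 and 74.8 CPM at CT14 and 29.2, 27.1 and 28.1 CPM at CT2 (-1.43 ± 0.19 log2, adjusted p = 0.000381). St3gal5, the ganglioside GM3 synthase, fell in its time effect by 1.83 ± 0.25 log2 (adjusted p = 0.0004) and Mknk2, a kinase of the translation factor eIF4E, by 1.80 ± 0.27 log2 (adjusted p = 0.00116). Hcn3, an ion channel gene, fell by 3.88 ± 0.44 log2 (adjusted p = 8.18e-05) and Nrep by 3.30 ± 0.50 log2 (adjusted p = 0.00145).

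**Figure D3:**
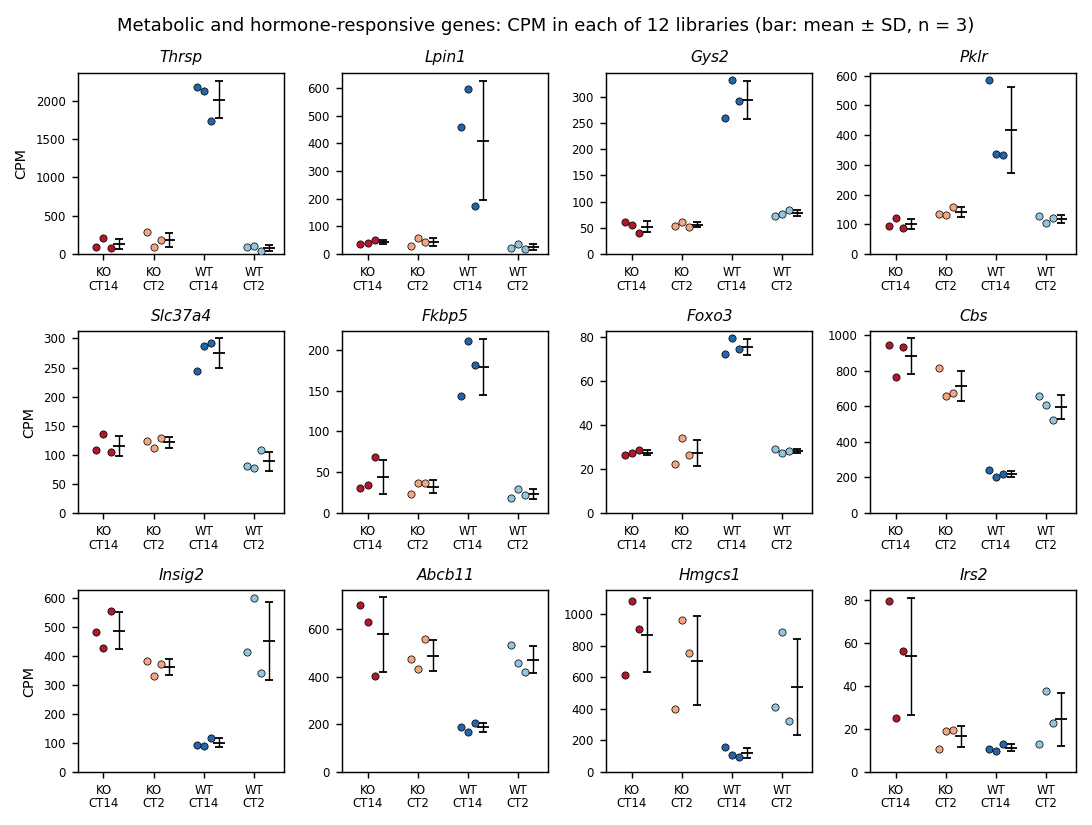
Levels in CPM of 12 metabolic and hormone-responsive genes in each of the 12 libraries, with KO at CT14 and CT2 to the left of WT at CT14 and CT2; points are libraries and bars the mean ± SD (n = 3). In Thrsp, Gys2 and Foxo3 WT at CT14 stands above all other points, in Cbs, Insig2 and Hmgcs1 it stands below them, and in Irs2 the 2 highest libraries are of KO at CT14.

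The 96 lost day-high genes had a median KO position of 0.0153 on a scale from the WT level at CT2 (0) to that at CT14 (1), close to the daytime level. Cbs, which joins homocysteine and serine, stood at 942, 763 and 936 CPM in KO at CT14 and 813, 660.0 and 672 CPM in KO at CT2. Cbs in WT stood at 239, 203 and 219 CPM at CT14 and 657, 605 and 522 CPM at CT2 (1.73 ± 0.30 log2, adjusted p = 0.00445). Cbs was the single called gene of 26 in the amino acid and urea cycle list (0.799% of all genes were called), whose median was -0.37 log2. Amdhd1, an enzyme of histidine breakdown, rose in its time effect by 1.45 ± 0.23 log2 (adjusted p = 0.00193), and Amt, of the glycine cleavage system, a gene chosen after its values were seen, by 1.51 ± 0.26 log2 (adjusted p = 0.00445).

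Of 24 cholesterol synthesis genes 1 rose in its time effect, and of 22 bile acid genes 1 rose, against 0.502% of all genes (median differences 0.53 and -0.19 log2). Insig2, whose product holds the sterol sensor SCAP in the endoplasmic reticulum, stood at 482, 427 and 557 CPM in KO at CT14 and 383, 331 and 371 CPM in KO at CT2. Insig2 in WT stood at 92.1, 88.4 and 118 CPM at CT14 and 415, 603 and 342 CPM at CT2. Its difference of 2.62 ± 0.48 log2 (adjusted p = 0.00724) missed the threshold without KO CT2 replicate 1 and KO CT14 replicate 3 (adjusted p = 0.0519) and without the 2 spermatid-positive KO libraries (adjusted p = 0.0532). Abcb11, the bile salt export pump, stood at 704, 629.8 and 401 CPM in KO at CT14 and 475, 432 and 560.2 CPM in KO at CT2. Abcb11 in WT stood at 187, 166 and 206 CPM at CT14 and 533, 459 and 421 CPM at CT2 (1.58 ± 0.28 log2, adjusted p = 0.00512; 0.0578 without the spermatid-positive KO libraries). Hsd3b7, an early enzyme of bile acid synthesis chosen after its values were seen, gave 1.59 ± 0.27 log2 (adjusted p = 0.00423). Hmgcs1, which makes the precursor of mevalonate, gave 617, 1083 and 904 CPM in KO at CT14 and 400.5, 964 and 754 CPM in KO at CT2. Hmgcs1 in WT stood at 154, 108 and 92.1 CPM at CT14 and 409, 888 and 319 CPM at CT2. Its call (2.49 ± 0.58 log2, adjusted p = 0.0446) was less stable: the call was lost on leaving out any 1 of KO CT14 replicates 2 and 3, KO CT2 replicates 1 and 3, WT CT14 replicates 1, 2 and 3, or WT CT2 replicates 1 and 2, with an adjusted p of up to 0.157. Cyp7a1, the rate-limiting enzyme of bile acid synthesis, gave -0.88 ± 0.81 log2 (adjusted p = 0.885).

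Asap2, which regulates ARF GTPases, stood at 30.7, 22.3 and 27.5 CPM in KO at CT14 and 16.1, 27.3 and 22.02 CPM in KO at CT2. Asap2 in WT stood at 3.36, 3.98 and 4.78 CPM at CT14 and 28.3, 25.2 and 17.5 CPM at CT2 (2.85 ± 0.32 log2, adjusted p = 6.35e-05). Avpr1a, the vasopressin receptor of hepatocytes, gave 80.02, 73.5 and 80.3 CPM in KO at CT14 and 84.2, 75.7 and 76.2 CPM in KO at CT2. Avpr1a in WT stood at 24.5, 15.03 and 29.8 CPM at CT14 and 93.3, 114 and 79.5 CPM at CT2 (2.04 ± 0.33 log2, adjusted p = 0.00249). In both genes KO overlapped WT at CT2 and stood above it at CT14. Mcu, the pore of the mitochondrial calcium uniporter, rose in its time effect by 1.93 ± 0.28 log2 (adjusted p = 0.000869) and Ndrg1, a gene known from hypoxia, by 3.08 ± 0.43 log2 (adjusted p = 0.000669). Clpx, the unfoldase of a mitochondrial protease, chosen after its values were seen, rose by 2.48 ± 0.44 log2 (adjusted p = 0.00608; 0.0532 without the spermatid-positive KO libraries). Pdgfc, Eps8l2, Mad2l2, Dtx4, Rnf125, Nckap5 and the uncharacterised genes 3930402G23Rik and Gm11454 were also among the 15 genes with the smallest p in this direction that reached 1 CPM in a group. Gm11454 was not called on the TPM scale (adjusted p = 0.404).

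KO and WT were farther apart at CT14 than at CT2. Of the 164 genes, 153 were also called for KO against WT at CT14, where 5.31% of all genes were called, and 19 at CT2, where 0.517% were; 12 were called at both times, 7 at CT2 alone and 4 at neither. The libraries of KO and WT did not overlap in 159 of the 164 at CT14 (25.9% of all genes) and overlapped in 97 at CT2 (14% of all genes did not overlap). The median size of the KO to WT difference was 1.61 log2 at CT14 and 0.35 log2 at CT2. Over all genes it was 0.35 and 0.26 log2. On a scale on which 0 is the WT level at CT2 and 1 the WT level at CT14, the mean KO level had a median position of 0.0664, with quartiles of -0.136 and 0.245. These values share libraries with the contrast that chose the genes, so they describe and do not test. Exceptions included Bmal1, Cry2 and Pfkfb1, in which KO was called against WT at CT2 and not at CT14.

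**Figure D4:**
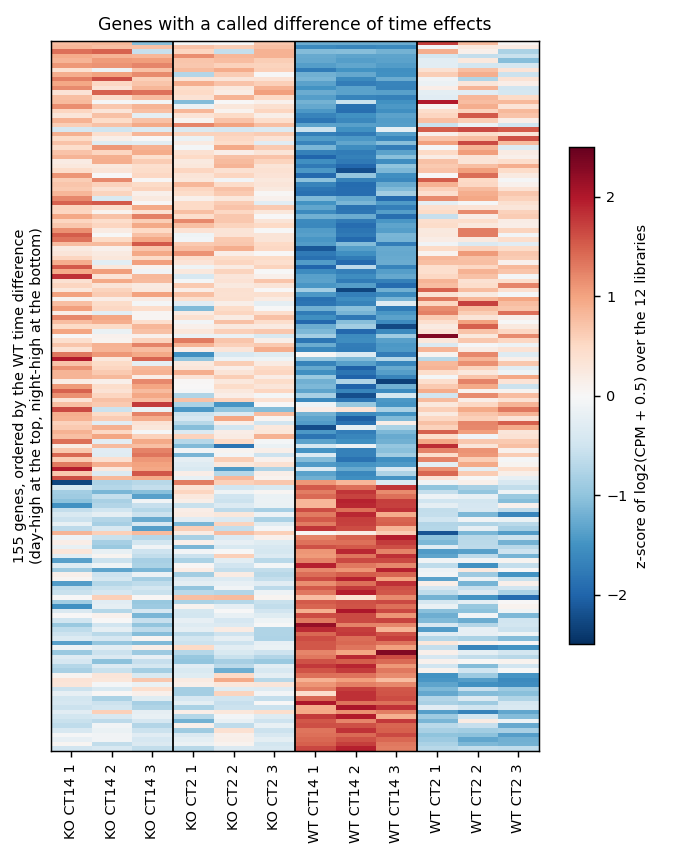
The 155 of the 164 called genes that reached 1 CPM in at least 1 group are rows, ordered by their WT time difference, and the 12 libraries are columns, KO at CT14 and CT2 before WT at CT14 and CT2. Colours are z-scores of log2(CPM + 0.5) within a gene; the 3 WT libraries at CT14 stand apart from the other 9 in most rows, blue in the upper day-high rows and red in the lower night-high rows.

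In 30 of the 164 genes the CT14 and CT2 libraries differed in opposite directions in KO and WT with no overlap in either, as in 0.795% of all genes. In the 9 genes called for time in neither genotype alone, the KO difference ran against that of WT in each, with an unadjusted KO p under 0.05. The choice of genes by the difference of time effects favours both patterns, so they describe and do not test. Irs2, which relays insulin signals in hepatocytes, stood at 79.4, 25.05 and 56.2 CPM in KO at CT14 and 10.6, 19.1 and 19.5 CPM in KO at CT2. Irs2 in WT stood at 10.7, 9.73 and 12.7 CPM at CT14 and 13.01, 37.4 and 22.6 CPM at CT2. It was higher at CT14 in KO and higher at CT2 in WT, without overlap in either genotype (2.85 ± 0.52 log2, adjusted p = 0.0074; 0.1 in a fit to the 12 libraries alone and 0.0577 without KO CT2 replicate 1 and KO CT14 replicate 3). Its time difference was 1.71 ± 0.37 log2 in KO (adjusted p = 0.624) and -1.14 ± 0.37 log2 in WT (adjusted p = 0.127). Foxq1, a forkhead factor, gave 64.2, 14.3 and 18.8 CPM in KO at CT14 and 7.64, 10.5 and 9.77 CPM in KO at CT2. Foxq1 in WT stood at 23.2, 26.4 and 11.8 CPM at CT14 and 31.2, 39.7 and 51.2 CPM at CT2. Its difference of 2.80 ± 0.63 log2 (adjusted p = 0.0405) was less stable, since the call was lost on leaving out any 1 of KO CT14 replicate 1, KO CT2 replicates 1, 2 and 3, WT CT14 replicates 1, 2 and 3, or WT CT2 replicates 2 and 3, with an adjusted p of up to 0.119. Rpl21, a ribosomal protein gene, was also called (3.24 ± 0.70 log2, adjusted p = 0.0289), but many near-identical copies share its reads and its value is uncertain; the call was lost on leaving out any 1 of KO CT14 replicates 1 and 2, KO CT2 replicates 1 and 2, WT CT14 replicate 2, or WT CT2 replicate 2, with an adjusted p of up to 0.0956.

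The remaining members of this group were chosen for mention after their values were seen. Plxnb1, a semaphorin receptor, had a difference of 1.62 ± 0.31 log2 (adjusted p = 0.0113). Hdc, which makes histamine, had 1.83 ± 0.39 log2 (0.0258). Fst, which encodes the activin-binding protein follistatin, had 2.36 ± 0.55 log2 (0.0464) and Bdh2 -1.71 ± 0.39 log2 (0.0407). Of these 4, Plxnb1 was called in all 12 fits that left out 1 library, Hdc in 7, Bdh2 in 3 and Fst in 2, with adjusted p of up to 0.0408, 0.098, 0.119 and 0.146. Tcf23 and Ctsk stayed under 1 CPM in every group and are named only. In Igfbp1, another gene of the insulin response, the difference was 5.72 ± 1.5 log2 but the KO libraries at CT14 ranged from 24.4 to 213 CPM, and the call failed (adjusted p = 0.107).

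Of 18 heat shock genes, which follow the daily rise of body temperature, 8 were night-high in WT, against 1.1% of all genes. A called difference of time effects was found in 0 of the 18 and in 0.799% of all genes. At that share, 0 calls say nothing of their own about these genes. The median time difference was -0.04 log2 in KO and 1.28 log2 in WT, and the median difference of time effects was -1.42 log2. Hspa8, the constitutive HSP70 chaperone, stood at 530.0, 1143 and 793 CPM in KO at CT14 and 1396, 929.7 and 693 CPM in KO at CT2. Hspa8 in WT stood at 1742, 1405 and 2711 CPM at CT14 and 599, 417 and 653 CPM at CT2 (-2.10 ± 0.56 log2, adjusted p = 0.101; chosen after its values were seen). WT libraries of the 2 times did not meet, while KO libraries of the 2 times overlapped. The near-identical Hspa1a (-3.32 ± 1.0 log2, adjusted p = 0.188) and Hspa1b (-2.68 ± 0.95 log2, adjusted p = 0.297) cannot be separated with certainty. A heat shock element stood in the windows of 10 of the 15 heat shock genes with one (66.7%), against 14.3% of tested genes, 6.38% of lost night-high genes and 16.4% of lost day-high genes.

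Smaller contributions came from other lists, to be read beside 0.502% of all genes that rose and 0.297% that fell. Of 35 xenobiotic genes, 2 fell: Fmo5 (-1.51 ± 0.33 log2, adjusted p = 0.0306) and the nicotine and coumarin hydroxylase Cyp2a5 (-4.13 ± 0.86 log2, adjusted p = 0.0256), whose reads are shared with Cyp2a4 and whose value is uncertain. Fmo5 was called in 4 of the 12 fits that left out 1 library and Cyp2a5 in 4, with adjusted p of up to 0.103 and 0.075. In the growth hormone axis 1 of 13 rose, the signal transducer Stat5b (1.16 ± 0.25 log2, adjusted p = 0.0306), which was called in 2 of those 12 fits. In the list of endoplasmic reticulum stress 1 of 22 rose, the mitochondrial stress factor Atf5 (1.79 ± 0.37 log2, adjusted p = 0.02), called in 8. Adjusted p reached 0.102 for Stat5b and 0.0743 for Atf5. Cdkn1a, the cell cycle inhibitor p21, rose (2.2 ± 0.51 log2, adjusted p = 0.0438) at 30.5, 30.7 and 60.3 CPM in KO at CT14 and 27.3, 27.6 and 23.7 CPM in KO at CT2. Cdkn1a in WT stood at 3.96, 5.35 and 2.799 CPM at CT14 and 13.9, 10.7 and 11.5 CPM at CT2; the call was lost on leaving out any 1 of KO CT14 replicate 3, KO CT2 replicates 1, 2 and 3, WT CT14 replicates 1 and 3, or WT CT2 replicates 1, 2 and 3, with an adjusted p of up to 0.131. Of 24 feeding and insulin genes 1 rose (Irs2) and 1 fell (Foxo3). Of 25 cell cycle genes 1 rose (Cdkn1a) and 1 fell (Wee1). Lists of 29 genes of fatty acid oxidation, 17 of NAD metabolism, 19 of iron and heme, 24 of the acute phase, 21 immediate early genes and 28 ribosomal proteins held 0 calls, with medians of -0.13, -0.05, 0.10, 1.16, 0.20 and -0.16 log2. With 0.799% of all genes called, 0 calls in lists of this size say nothing of their own. The acute phase list had 3 members called day-high in WT, where 1.44% of all genes were.

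Marker lists of other cells held 0 calls for the difference of time effects, among 12 Kupffer cell, 10 endothelial, 10 stellate cell, 8 cholangiocyte, 12 lymphocyte, 8 neutrophil, 6 erythroid, 2 adipocyte, 11 pancreatic and 16 spermatid genes tested. Over all genes 0.799% were called, so 0 calls in such short lists do not set these genes apart. The adipocyte genes summed to at most 0.291 CPM in KO and 0.574 CPM in WT. For cholangiocyte genes the sum was 268 CPM in the third KO library at CT14, against 31.0 to 177 CPM in the other 11 libraries. The 16 interferon-stimulated genes had a median time difference of 1.76 log2 in KO and -0.12 log2 in WT. Of these, 9 had an unadjusted KO p under 0.05, against 3.67% of all genes, and 0 were called. KO CT14 replicate 3 held 3386 CPM of these genes, as given above, while KO CT14 replicates 1 and 2 held 305 and 412 CPM. KO CT2 replicates 1, 2 and 3 held 529, 832 and 376 CPM. Without KO CT14 replicate 3 the difference of time effects had 138 calls, of which 117 were among the 164, and time in KO had 0.

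The same contrast in the liver-specific knockout gave 23 calls (0.112% of genes), and 1276 genes (6.22%) had an unadjusted p under 0.05. The count was 57 without LKO CT2 replicate 3, 55 without F CT2 replicate 3 and 12 to 15 without any 1 of the other LKO libraries or F CT14 replicate 3. The first 2 of these libraries stood apart, with 8.15 CPM of Ddx3y in LKO CT2 replicate 3 and 3.86 CPM in F CT2 replicate 3, against 28.5 to 48.5 CPM in the other 10 LKO and F libraries. F CT2 replicate 3 also held 2866 CPM and F CT14 replicate 3 885 CPM of pancreatic acinar genes, against 24.9 to 81.2 CPM in the other 10. Of the 164 genes of the global knockout, 15 were among them, 9.15% of the 164 and 65.2% of the 23, all with the same sign. They included the clock genes Npas2, Per3, Dbp and Tef, the glycogen synthase gene Gys2, the cell cycle genes Wee1 and Cdkn1a, Mad2l2, 3930402G23Rik and Gm11454, and 4 genes chosen here because of this overlap: Loxl4, which crosslinks collagen, the manganese transporter Slc30a10, the mitophagy receptor Bnip3 and Adck5. In Gys2 the time difference was 0.01 ± 0.17 log2 in LKO and 1.59 ± 0.17 log2 in F. In Loxl4 it was 0.12 ± 0.55 log2 in LKO and -4.80 ± 0.66 log2 in F.

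The F libraries supplied no level to the contrast that chose the genes but shared its filter and estimate of spread; a fit to the 12 KO and WT libraries alone gave 158 calls, of which 115 were among the 164. F had the WT sign of the time difference in 160 of the 164 genes. It had that sign in 510 of the 521 genes called in WT and in 12610 of all 20514 genes. F was called for time in 112 of the 164, where 2.66% of all genes were called. LKO was called for time in 25 of the 164, where 0.848% of all genes were. The 59 lost night-high genes had medians of 0.54 log2 in LKO and 1.38 log2 in F, and the 96 lost day-high genes -0.51 log2 in LKO and -1.24 log2 in F. Over all 545 genes called for time in F, the median LKO difference was 0.418 of that in F, and over the 521 genes called in WT 0.486. Both median shares were larger than the -0.007 for KO over the 521 genes called in WT. The shares differ in kind, since all 521 were called in WT, which divides the KO share. In F, which divides the LKO share, 254 of the 521 were called. The share of 0.418 was over genes all called in F, but that is a different set of genes. These medians were not tested against each other.

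The KO and WT contrast minus the LKO and F contrast, called here the difference of the 2 contrasts, was tested gene by gene. It takes in differences between the 2 controls as well as between the 2 knockouts. No gene passed: 0 by edgeR, with a smallest adjusted p of 0.116 (Nckap5), 1242 at an unadjusted p under 0.05 (6.05%), and 49 by DESeq2. In Nckap5 the time difference was 1.34 ± 0.48 log2 in KO and -3.46 ± 0.53 log2 in WT. In LKO it was -0.38 ± 0.48 log2 and in F 0.86 ± 0.51 log2, so the 2 controls differed in sign. Of the 164 genes, 103 had an unadjusted p under 0.05 for it, but these were chosen by a contrast that forms part of it. In Usp2 the time difference was -0.27 ± 0.33 log2 in KO and 5.24 ± 0.40 log2 in WT. In LKO it was 2.48 ± 0.35 log2 and in F 4.46 ± 0.39 log2 (difference of the 2 contrasts -3.53 ± 0.68 log2, adjusted p = 0.191). In Slc37a4 the time difference was -0.07 ± 0.19 log2 in KO and 1.63 ± 0.19 log2 in WT. In LKO it was 0.88 ± 0.19 log2 and in F 0.71 ± 0.19 log2 (difference of the 2 contrasts -1.88 ± 0.38 log2, adjusted p = 0.191). In Asap2 it was -1.28 ± 0.22 log2 in LKO and -1.74 ± 0.23 log2 in F (2.38 ± 0.44 log2, adjusted p = 0.191). At this number of libraries none of these genes can be called particular to the global knockout.

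**Figure D5:**
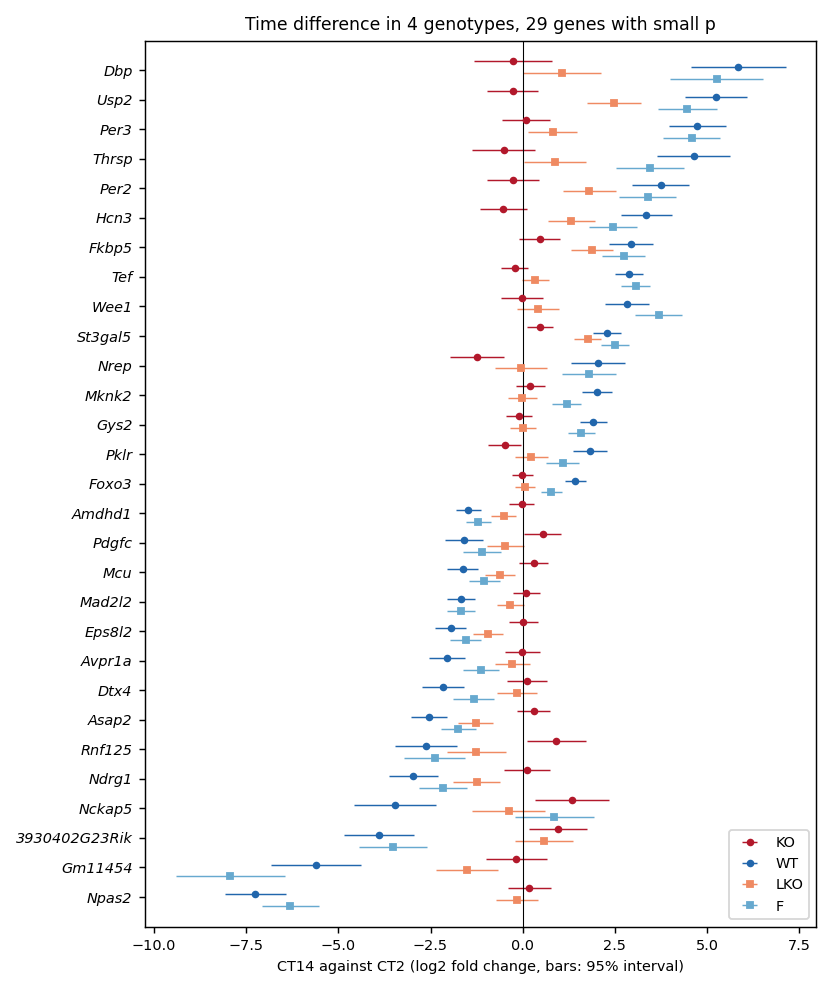
CT14 against CT2 as log2 fold change with its 95% interval for 29 of the 30 genes with the smallest p that reached 1 CPM in a group, 15 of them night-high and 14 day-high in WT, in KO and WT (circles) and in LKO and F (squares). KO lies near 0 in most rows, WT and F lie on the same side of 0 in most rows, and LKO lies near 0 for Tef, Gys2 and Npas2 and partly towards F for Usp2, Fkbp5 and St3gal5.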

How the data were processed

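Poly(A) RNA of mouse liver was sequenced from stranded TruSeq libraries, per the labels' protocols. The deposited estimated counts and TPM values per gene came from reads trimmed with fastp 0.23.2, aligned with HISAT2 2.2.1 to GRCm39 and quantified with StringTie 1.3.1 (source: per the submitters' processing notes). Neither the gene annotation's release nor the strand setting was stated in what was used here. Low estimated counts piled up at multiples of 4, at 1.18 to 1.35 times their neighbours (median 1.27). The authors also deposited DESeq2 comparisons with log2 fold changes, raw p-values and adjusted p-values, with formula and version not given in the sources used here; they were used for counts of their calls and for the values of 4 genes.

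Estimated counts were rounded and tested in edgeR 4.0.16 (R 4.3.3) with TMM scaling and the robust quasi-likelihood F-test over all 24 libraries in 8 groups, after a filter of 10 counts in a group's worth of libraries and 15 in total. Of 56941 genes, 20514 were tested. Calls had a Benjamini-Hochberg adjusted p under 0.05 over all of them. The SE is the log2 fold change divided by the square root of F, and CPM uses TMM-scaled library sizes. Alternatives were RLE scaling, no filter, DESeq2 1.42.0, a replicate block, counts divided by 4, limma 3.58.1 on log2(TPM + 1), the 12 WT and KO libraries alone, and fits without single libraries or pairs. The script was tested on simulated data.

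Symbols came from the authors' table for 21595 genes and from the reference name table for 30432; 4914 had none, 642 of them tested. The reference given was GRCm38, so it served for names and promoter windows (250 bases before to 50 after a start) and not for coordinates of the counted genes. The genes named are the clock lists, the 15 genes with the smallest p in each direction and at least 1 CPM in a group, the 3 largest differences of each class, and the called members and the 2 largest uncalled differences of each other list. No gene was called in both genotypes in the same direction, so the last part of the rule, for kept genes, named none. The members and lists were chosen with earlier results of these data known. No column lacked a sample. Some genes that the rule names are not reported here.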

Additional observations from a re-analysis of the deposited data

Results flagged for a closer look

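Among the 164 called genes, 30 had time differences of opposite direction in KO and WT with no overlap between the libraries of the 2 times in either genotype, where 0.795% of all genes did. Of these, 27 reached 1 CPM in a group, 19 of them higher at CT14 in KO and 8 lower. Each was singled out because KO and WT moved in opposite directions and the difference of time effects (KO minus WT, log2) passed the test. That test favours opposite directions, so their share among the called genes describes and does not test.

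Genes that were higher at CT14 in KO and higher at CT2 in WT were 3930402G23Rik (4.84), Nckap5 (4.80), Loxl4 (4.74), Mab21l3 (4.25), Rnf125 (3.53), Irs2 (2.85), Foxq1 (2.80), Insig2 (2.62), Fst (2.36), Raet1e (2.32), Mpzl1 (2.32), Cdkn1a (2.2), Hdc (1.83), Plxnb1 (1.62), Arl2bp (1.49), Rhod (1.42), Id2 (1.37), Myh10 (1.37) and Pid1 (1.06). Genes that were lower at CT14 in KO and lower at CT2 in WT were Nrep (-3.30), Gm45051 (-2.40), Pklr (-2.31), B4galt5 (-1.96), Fdx1 (-1.19), Ddo (-1.09), Stim2 (-1.08) and Maco1 (-1.05). None of the 27 was called for time in KO taken alone by edgeR; the authors' deposited table listed adjusted p-values of 0.00415 for Irs2 and 0.0208 for Nrep.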

How the results depend on the processing

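The 164 calls of the difference of time effects became 388 with DESeq2, which shared all 164, 85 without the 2 spermatid-positive KO libraries, and 98 without KO CT2 replicate 1 and KO CT14 replicate 3 (a pair chosen after seeing the data). They were 162 with RLE scaling, 128 with no filter, 178 with counts divided by 4, 143 with limma on TPM and 158 with the 12 libraries alone, and 101 to 158 with single libraries left out. WT time calls were 949 with DESeq2 and 270 to 414 with single libraries left out. KO time calls were 37 with DESeq2, 1 with limma on TPM, 4 without the spermatid-positive libraries, 2 without the chosen pair and 0 to 8 with single libraries left out. Calls of the LKO and F contrast were 130 with DESeq2 and 12 to 57 with single libraries left out. Those of the KO and WT contrast minus the LKO and F contrast were 49 with DESeq2. They were 3 without the spermatid-positive libraries and 0 to 2 with single libraries left out. The cause of these shifts was not tested. Of 80 named called genes, 54 were called in every fit without 1 library, 41 in all 21 settings, and 0 changed sign; of 56 not called, 15 were called in a setting.

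The replicate numbers are shared between groups, and a replicate block gave 136 calls of the difference of time effects, 478 for time in WT and 0 for time in KO. It gave 20 for the LKO and F contrast and 0 for the KO and WT contrast minus the LKO and F contrast. Same-numbered libraries had correlations of deviations of -0.0831 to 0.0574 (18 pairs, 0 over 0.1) and differently numbered ones of -0.0817 to 0.115 (36 pairs, 1 over 0.1), so no pairing by number was visible. A pairing that touches few genes would not show in these correlations. Genes with near-zero counts in a group, such as Ciart, carry fold changes that this depth leaves imprecise.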
